A study of Mus musculus with 7 samples.

Results

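The small leucine-rich proteoglycan genes were followed through 6 peak lists of histone marks from mouse chondrocytes and dermal fibroblasts. The members were chosen by name as Dcn, Bgn, Aspn, Lum, Fmod, Prelp, Kera, Omd, Epyc and Ogn, which makes 10 of 18089 protein-coding genes that had a position in both genome builds used. Dcn, Lum, Kera and Epyc lie side by side on chromosome 10 and were taken as 1 locus, as were Aspn, Omd and Ogn on chromosome 13. With Bgn on chromosome X and Fmod and Prelp on chromosome 1, this gave 5 loci.

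The study mapped H3K27ac, an acetylation of active promoters and enhancers, and H3K4me2, a methylation found at both, by ChIP-Seq in search of enhancers that drive Sox9, the master regulator of cartilage formation. Primary chondrocytes came from rib cartilage of newborn mice and were used within 2 passages, and they gave 2 H3K27ac replicates and 1 H3K4me2 library. Primary dermal fibroblasts came from the dorsal skin of newborn mice and gave 1 H3K27ac library, the negative control. A further pair of H3K27ac libraries came from rib chondrocytes labelled WT and from those labelled E160(delta/delta);E308(delta/delta), in which both copies of the Sox9 enhancers E160 and E308 had been removed by editing of C57BL/6J embryos. WT and deletion cells came from littermates. The deletion is in every cell of the animal, and no genotype or strain is given in the labels for the first 4 libraries. Sequencing depth is unknown, because the lists give positions and scores and no reads. With 1 library in every group except chondrocyte H3K27ac, the values below are a description with no test.

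Small leucine-rich proteoglycans are secreted matrix proteins built from leucine-rich repeats, which bind collagen fibrils and set their diameter and spacing. Many carry chains of chondroitin, dermatan or keratan sulfate, and several hold growth factors of the TGF-β family in the matrix. Cartilage and dermis are both rich in them. By sequence, Dcn, Bgn and Aspn form class I, Lum, Fmod, Prelp, Kera and Omd class II, and Epyc and Ogn class III.

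The lists held between 19458 peaks (fibroblasts) and 66369 peaks (H3K4me2). Chondrocyte replicate 2 carried GRCm38 positions and the other 5 lists mm9 positions. The cell labels were checked against promoters of marker genes, and a promoter counted as marked where some peak came to within 1 kb of the start of the gene. Of 12 chondrocyte markers, replicate 1 marked 7, replicate 2 and both WT and deletion chondrocytes 10 each, and fibroblasts 1, Sox9. Col2a1, Matn1, Sox5, Sox6 and Sox9 had no promoter peak in replicate 1, while replicate 2, WT and the deletion list lacked Matn1 and Sox5. Sox9 was thus marked in fibroblasts and not in replicate 1. Of 11 fibroblast markers, 6 were marked in fibroblasts, and 3, 7, 8 and 7 in replicates 1 and 2, WT and deletion chondrocytes. Replicate 2, WT and deletion chondrocytes thus marked more of them than fibroblasts did. Of all promoters, 47.5% were marked in fibroblasts and 44.1% to 50% in the chondrocyte H3K27ac lists. Among the fibroblast markers, the collagen genes Col1a1, Col1a2 and Col3a1 were marked in all 4 chondrocyte H3K27ac lists but not in fibroblasts. Prrx1 was marked in replicate 2, WT and the deletion list and not in fibroblasts. Pdgfra, Twist2 and Thy1 were marked in fibroblasts and also in replicate 2, WT and the deletion list. Dpt and Tbx15 were marked in fibroblasts alone of the 5 H3K27ac lists. The deposited fibroblast list thus went against its label at the collagen genes and Prrx1, and the fibroblast markers as a set did not verify that label. The paper, however, describes fibroblast peaks at Col1a1 in its own tracks and high Col1a1 RNA in these cells. Of 51 promoters with WT peaks of 8000 bp or more, only 52.9% were marked in replicate 1 and 51.0% in fibroblasts, against 98.0% in both replicate 2 and the deletion list, and the part of this in the missing collagen calls was not tested. No promoter of a keratinocyte, endothelial, blood or muscle marker was marked in any of the 5 H3K27ac lists. Of the 2 bone markers that could be placed, Sp7 and Bglap, Sp7 was marked in WT alone among them. Fewer cells of a type and less mark per cell cannot be told apart in such bulk libraries.

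Most of the family carried active chromatin in both cell types. H3K27ac marked 8 of 10 member promoters in each chondrocyte list, where the background over all genes was 44.2% for replicate 1, 44.1% for replicate 2, 50% (9046 of 18089) for WT and 47.1% for the deletion list. The mean over the chondrocyte replicates was 8 ± 0 (SD, n = 2). In fibroblasts 7 of 10 were marked (47.5% of all genes), and H3K4me2 marked 7 in chondrocytes (66.3%). The promoters of Dcn, Lum, Aspn, Omd, Ogn, Bgn and Prelp were marked in all 5 H3K27ac lists, which held for 37.5% of all genes. Kera and Epyc had no peak at the gene start in any of the 6 lists, like 31.3% of all genes.

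The promoter of Fmod, the gene of fibromodulin, set the cell types apart. It was the 1 member marked in all 4 chondrocyte H3K27ac lists and not in fibroblasts, a pattern of 1.48% of all genes. No member showed the reverse, which 1.67% of all genes did. Both shares take 1 start per gene, and the share with such a contrast at a further start was not counted. Epyc, the gene of epiphycan, a proteoglycan of growth cartilage, showed the same contrast at its second annotated start, 3.02 kb inside the gene. The sequences before these starts are shown because H3K27ac peaks there were called in chondrocytes and not in fibroblasts. The sequence before the first Epyc start is shown as the unmarked one of the same gene. All are the 250 bases upstream on the plus strand of mm9, and none contains an annotated exon. They lie at chr1:135933581-135933830 for Fmod, chr10:97109473-97109722 for the second Epyc start and chr10:97106452-97106701 for the first. Capitals mark matches to AACAAT, the core bound by SOX proteins, or to its reverse complement ATTGTT. The AP-1 core, TGANTCA, was also searched and reads the same on both strands.
Fmod start: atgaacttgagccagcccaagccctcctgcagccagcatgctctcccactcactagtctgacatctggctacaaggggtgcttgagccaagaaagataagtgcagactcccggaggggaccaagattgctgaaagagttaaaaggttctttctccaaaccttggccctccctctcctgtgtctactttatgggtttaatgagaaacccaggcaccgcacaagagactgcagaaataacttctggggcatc
Epyc second start: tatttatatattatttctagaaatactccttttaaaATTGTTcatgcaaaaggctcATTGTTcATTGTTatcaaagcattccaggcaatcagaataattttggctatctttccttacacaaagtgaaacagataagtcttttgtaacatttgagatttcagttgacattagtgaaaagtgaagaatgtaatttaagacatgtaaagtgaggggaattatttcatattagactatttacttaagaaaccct
Epyc first start: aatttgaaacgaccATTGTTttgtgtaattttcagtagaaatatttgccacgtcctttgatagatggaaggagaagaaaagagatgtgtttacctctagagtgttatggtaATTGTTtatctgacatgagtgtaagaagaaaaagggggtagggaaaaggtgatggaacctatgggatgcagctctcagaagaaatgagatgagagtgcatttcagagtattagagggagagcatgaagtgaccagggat

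The second Epyc start held 3 matches to AACAAT and the first held 2. At least 1 match was found before 9.13% of 22072 coding gene starts in windows of the same length, and 3 or more before 0.0589%, with each gene taken at its first start. The Fmod window held neither motif, and TGANTCA was absent from all 3 windows against 5.99% of the gene starts. The window of the second Epyc start was also poor in G and C, which made up 28.4% of its bases against 39.2% at the first start and 51.2% at Fmod. The background windows were not matched for base composition. The 250 bases before the start of Kera, which was unmarked in every list, also held 1 match to AACAAT. A match is a run of letters only, and binding was not measured here.

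**Figure D1:**
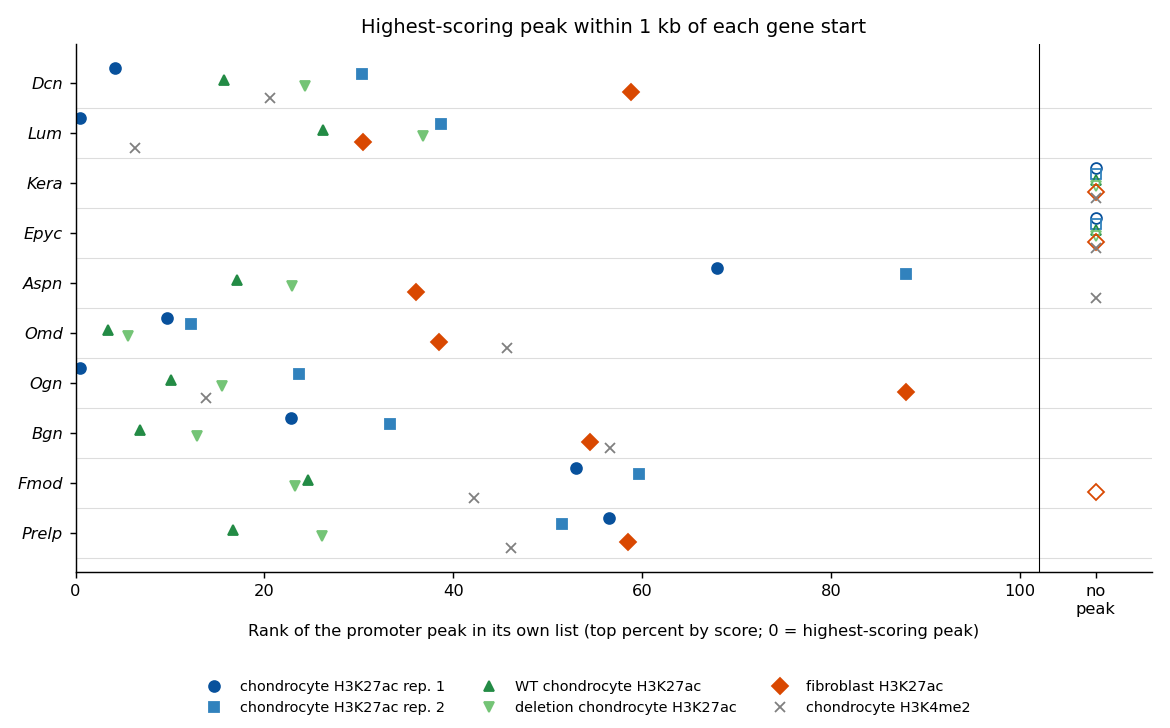
Rank of the highest-scoring peak within 1 kb of each gene start, in the top percent of its own list by score (horizontal axis, 0 is the highest-scoring peak), for 10 genes and 6 lists (symbols), with open symbols at the right, or a cross for H3K4me2, where there was no peak. The fibroblast symbol of Dcn (58.8%), Omd (38.5%), Ogn (87.9%) and Bgn (54.5%) lies to the right of all 4 chondrocyte H3K27ac symbols, and that of Fmod is among those without a peak.

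The marks were compared in strength by rank, since scores are not comparable between lists. The top percent of a peak is its rank by score as a percentage of its own list, so that a small value is a strong peak. Peaks of equal score all took the best rank among them. Over all marked promoters the median was 26.1% in fibroblasts and 23.9%, 23.0%, 16.5% and 20.9% in chondrocytes (replicates 1 and 2, WT and deletion, the order used below). Of the 7 members marked in all 5 H3K27ac lists, 4 (Dcn, Omd, Ogn and Bgn) ranked at least 20 percentage points higher in every chondrocyte list than in fibroblasts. The same held for 5.31% of 6777 genes marked in all 5 lists. No member ranked that much higher in fibroblasts than in every chondrocyte list, against 0.236% of those genes. With a margin of 30 points, 1 member, Ogn, was left.

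Class I members were marked in both cell types, and their order differed by gene. Dcn encodes decorin, which binds collagen fibrils and carries 1 chain of chondroitin or dermatan sulfate. Its promoter peak (gene at chromosome 10, 96942245–96980777, mm9) was in the top 4.16%, 30.3%, 15.7% and 24.3% of the chondrocyte lists and the top 58.8% of fibroblasts. The fibroblast peak was the lowest in rank and the widest, with 6404 bp against 4986, 2300, 4023 and 3821 bp in the chondrocyte lists. Bgn encodes biglycan, the closest relative of decorin, and lies at chromosome X, 70728941–70741272. Its promoter peak was in the top 22.8%, 33.3%, 6.84% and 12.9% of the chondrocyte lists and the top 54.5% of fibroblasts. As at Dcn, the fibroblast peak of Bgn was the lowest in rank and the widest, at 5294 bp against 1468 to 5116 bp.

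Aspn encodes asporin, which binds collagen and TGF-β, and lies at chromosome 13, 49639812–49662926. It departed from the other class I genes, with the top 67.9%, 87.9%, 17.1% and 22.9% in the chondrocyte lists and 36.0% in fibroblasts. The fibroblast value fell between those of the chondrocyte lists, so that the cell types overlapped. The peak was 382 bp wide in replicate 2 and 6176 bp in WT. H3K4me2 had no peak at the Aspn promoter, and its nearest peak began 1.34 kb from the start.

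Class II genes spanned the whole range, from Fmod to Kera. Fibromodulin, the product of Fmod, binds collagen and takes part in fibril assembly in cartilage and tendon. The Fmod promoter peak (gene at chromosome 1, 135933831–135944854) was in the top 53.0%, 59.7%, 24.6% and 23.2% of the chondrocyte H3K27ac lists, and H3K4me2 ranked in the top 42.2%. In fibroblasts the nearest peak began at +41.0 kb, at Btg2. The Fmod peak was thus of middle or low rank in the replicates and higher in rank in WT and the deletion list. Lumican, the product of Lum, carries keratan sulfate in some tissues and sets fibril spacing. Lum (chromosome 10, 97028135–97035337) was in the top 0.484%, 38.7%, 26.2% and 36.8% of the chondrocyte lists and the top 30.4% of fibroblasts. The fibroblast value lay inside the chondrocyte range, and the replicates stood further apart than the cell types.

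Prelp encodes a protein that links basement membranes to collagen and lies at chromosome 1, 135806881–135817991, on the minus strand. Its promoter peak was in the top 56.5%, 51.5%, 16.7% and 26.1% of the chondrocyte lists and in the top 58.5% of fibroblasts. The fibroblast value was the lowest in rank, but by 2 to 41.8 points, so that it was close to both replicates and far from WT and deletion. Omd encodes osteomodulin, a keratan sulfate proteoglycan known from bone and dentin, at chromosome 13, 49678135–49687978. Omd had the most even chondrocyte values, in the top 9.68%, 12.2%, 3.39% and 5.51%, against the top 38.5% in fibroblasts. Its promoter peak was also the widest of the family in WT, at 7355 bp, and 2630 bp wide in fibroblasts. Kera encodes keratocan, a keratan sulfate proteoglycan of the cornea, at chromosome 10, 97069817–97076322. It had no peak at its start or in its body in any list, and the nearest peak edge was at +30.1 kb in replicate 1, −39.4 kb in replicate 2, −39.3 kb in WT, −39.4 kb in the deletion list, +18.6 kb in fibroblasts and −15.4 kb for H3K4me2 (a minus sign means upstream).

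In class III, both genes had their stronger marks in chondrocytes. Ogn encodes osteoglycin, also called mimecan, at chromosome 13, 49703440–49719869. Its promoter peak was in the top 0.434%, 23.7%, 10.1% and 15.5% of the chondrocyte lists. Fibroblasts had a pair of narrow peaks there, the better one of 1138 bp in the top 87.9%. The gap to the nearest chondrocyte list was 64.2 points, the widest among the 7 members marked throughout. At the second start of Epyc (gene at chromosome 10, 97106702–97145088), the peak was in the top 5.00%, 40.0%, 34.3% and 35.1% of the chondrocyte H3K27ac lists, and H3K4me2 ranked in the top 36.0%. The stretch from 1 to 8 kb behind the first Epyc start was covered over 5.82, 3.36, 4.15 and 2.50 kb in the chondrocyte lists and over 0 kb in fibroblasts. Fibroblasts had their Epyc peaks further inside the gene, where the longer one of 1318 bp lay in an intron at 97130851–97132168.

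**Figure D2:**
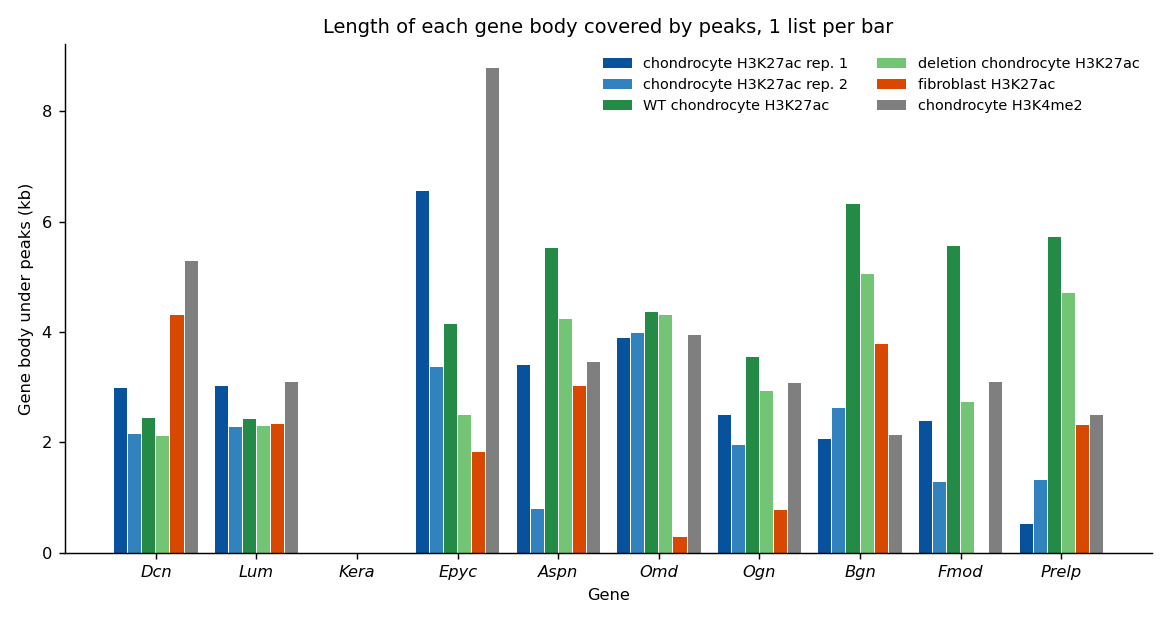
Length of each gene body under peaks in kb (vertical axis), with 1 bar per list for each of 10 genes. Fibroblast bars of Omd (0.280 kb), Ogn (0.778 kb) and Fmod (0) are at least 2 times shorter than every chondrocyte H3K27ac bar of the same gene, that of Dcn (4.31 kb) exceeds them all, and Kera has none.

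Peaks reached into the gene body at 9 of 10 members in replicate 1 (49.7% of all genes), replicate 2 (47.7%), WT (55.2%) and the deletion list (51.2%), and at 8 in fibroblasts (52.5%). H3K4me2 did so at 9 (73.2%). These counts include promoter peaks that reach into the gene. Without such peaks, Dcn, Epyc and Aspn had a body peak in replicate 1, and Epyc alone in fibroblasts. Replicate 2, WT and the deletion list had such peaks at more members, and the share over all genes was not counted. The covered length of the body was at least 2 times longer in all 4 chondrocyte H3K27ac lists than in fibroblasts for Omd, Ogn and Fmod, and for 3.57% of all genes. The reverse held for no member and for 3.67% of all genes. In Omd, peaks covered 3.90, 3.98, 4.36 and 4.31 kb of the body in replicates 1 and 2, WT and the deletion list, and 0.280 kb in fibroblasts. The fibroblast peak at Omd therefore ended soon after the gene start, while the chondrocyte peaks ran on into the gene. In Ogn the values were 2.50, 1.95, 3.55 and 2.93 kb against 0.778 kb in fibroblasts. In Dcn the fibroblast list covered most, with 4.31 kb against 2.11 to 2.99 kb.

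**Figure D3:**
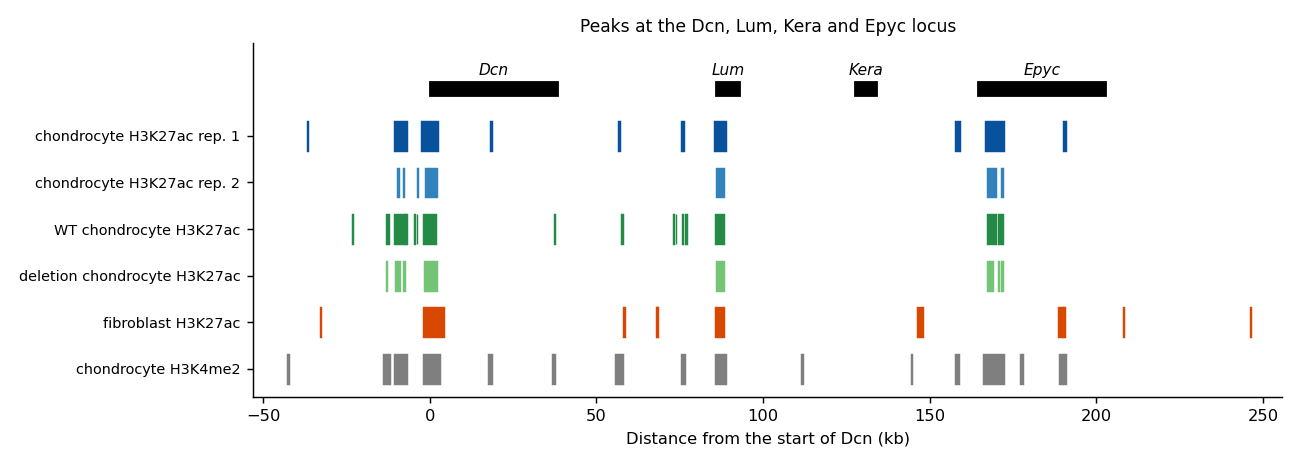
Peaks of the 6 lists (rows) at the Dcn, Lum, Kera and Epyc locus by distance in kb from the start of Dcn (horizontal axis), with gene bodies as black bars in mm9 and replicate 2 placed by distance in its own build. Blocks at Dcn and Lum are present in every row, the blocks from −14 to −4 kb of Dcn and at the second start of Epyc in every row but fibroblasts, and no block lies on Kera.

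At the chromosome 10 locus with 50 kb on each side, the lists held 10 (replicate 1), 8 (replicate 2), 17 (WT), 8 (deletion) and 11 (fibroblast) H3K27ac peaks, which covered 23.1, 10.5, 18.7, 11.1 and 15.4 kb. Upstream of Dcn, from −14 to −4 kb of its start, 3.95, 0.936, 4.82 and 2.34 kb were covered in the chondrocyte lists and 0 kb in fibroblasts. This stretch was picked after the peaks had been seen. H3K4me2 covered 5.75 kb of it. The strongest WT peak there was intergenic, 3118 bp wide and in the top 32.9% of its list, and its summit is shown because it was the highest-ranked of the WT peaks in that stretch, which all lacked a fibroblast peak. The 300 bases lie at chr10:96932332-96932631 on mm9, plus strand, and the strongest WT summit of the chromosome 13 locus, just before the start of Omd in an intron of Cenpp, lies at chr13:49677289-49677588.
Dcn upstream summit: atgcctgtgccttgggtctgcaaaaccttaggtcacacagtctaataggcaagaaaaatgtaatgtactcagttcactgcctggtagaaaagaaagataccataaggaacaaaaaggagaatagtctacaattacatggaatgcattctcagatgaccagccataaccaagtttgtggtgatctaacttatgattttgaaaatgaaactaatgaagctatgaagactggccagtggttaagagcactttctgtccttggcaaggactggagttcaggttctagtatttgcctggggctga
Omd summit: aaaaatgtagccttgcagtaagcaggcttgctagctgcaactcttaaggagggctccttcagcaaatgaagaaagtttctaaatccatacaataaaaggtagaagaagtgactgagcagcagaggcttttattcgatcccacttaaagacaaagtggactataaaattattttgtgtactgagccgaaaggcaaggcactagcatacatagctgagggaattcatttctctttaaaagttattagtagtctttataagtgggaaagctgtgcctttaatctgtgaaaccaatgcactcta

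Neither window held AACAAT or TGANTCA, which were present in 9.46% and 7.38% of the 33369 WT summit windows of that length. In the rest of the locus, fibroblasts had peaks of their own. Of 30 fibroblast peaks within 50 kb of the 5 loci, 8 met no peak of replicate 1, WT or the deletion list (23.0% of the whole fibroblast list), and 7 of the 8 lay at the chromosome 10 locus. These 7 ranked between the top 56.9% and 94.9% of the list, and their middles lay at −32.7, 68.0, 68.4, 147, 189, 208 and 246 kb from the start of Dcn. The last of the 8 was at −11.1 kb of Aspn in an intron of Cenpp. Chondrocyte H3K4me2 was present at 1 of the 8, the Epyc intron, against 41.6% of all such fibroblast peaks. Between Lum and Kera, from 8 to 39 kb behind the start of Lum, no H3K27ac list held a peak.

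**Figure D4:**
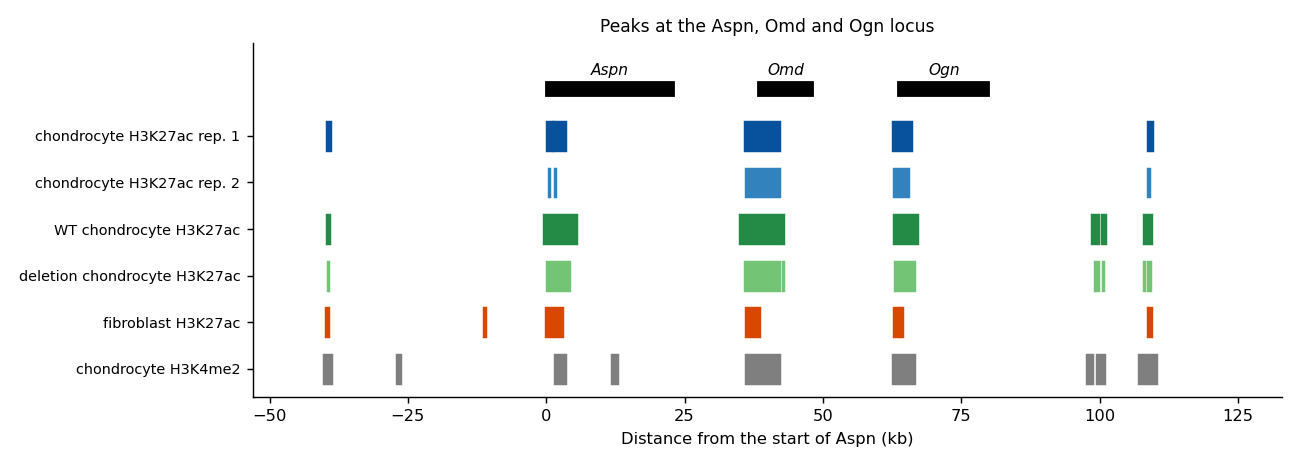
Peaks of the 6 lists (rows) at the Aspn, Omd and Ogn locus by distance in kb from the start of Aspn (horizontal axis), with gene bodies as black bars in mm9 and replicate 2 placed by distance in its own build. The fibroblast blocks at Omd and Ogn are shorter than those of the 4 chondrocyte H3K27ac rows, and the fibroblast block at −11.1 kb of Aspn has no counterpart.

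The chromosome 13 locus held 6 (replicate 1), 6 (replicate 2), 9 (WT), 9 (deletion) and 7 (fibroblast) H3K27ac peaks. Covered length was 15.5, 10.3, 22.8, 17.7 and 9.72 kb in the same order, so that fibroblasts had the least, though replicate 2 was close to them. All 3 genes lie inside Cenpp, which runs on the opposite strand at 49559396–49748124, so each promoter peak here is also in an intron of that gene. Behind Ogn, a peak 99.2 kb and another 101 kb from the start of Aspn were called in WT and the deletion list. Neither replicate 1 nor fibroblasts had them, and replicate 2 had no peak at these distances. H3K4me2 overlapped both in part.

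Bgn had wide distal marks in fibroblasts as well. Fibroblasts covered 13.6 kb within 50 kb of Bgn with 3 peaks, against 6.24 kb (replicate 1), 4.31 kb (replicate 2), 19.1 kb (WT) and 14.1 kb (deletion). A fibroblast peak of 6287 bp with its middle at −16.3 kb met peaks of replicate 1, WT and the deletion list, while the chondrocyte peaks at −23.2 kb (2007 bp in WT) and −6.91 kb (2279 bp in WT) had no fibroblast counterpart. The first of these also lacked H3K4me2 and had none in replicate 2, whose distal peaks before Bgn lay at −17.6, −15.8, −15.2 and −7.33 kb. Around Fmod, fibroblasts had 3 peaks, at 41.5, 56.0 and 61.8 kb behind the start, and all 3 met peaks of replicate 1, WT and the deletion list. A chondrocyte peak at −31.0 kb of Fmod, 337 bp wide and in the top 53.3% in WT, was absent from fibroblasts. Around Prelp all 6 fibroblast peaks met a WT peak, and 2 of them, near −11 kb, met none of replicate 1. The WT peak at −20.2 kb of Prelp, in the top 13.9%, was the strongest of that locus and was shared by all lists.

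Over the 5 loci, the H3K27ac lists held 35 (replicate 1), 41 (replicate 2), 61 (WT), 51 (deletion) and 30 (fibroblast) peaks, which covered 58.3, 35.4, 93.2, 64.2 and 49.1 kb. The whole lists covered 30.9, 18.3, 36.0, 23.6 and 22.5 Mb. With equal numbers of the highest-scoring peaks taken from each list, the 5 counts were 31, 39, 35, 37 and 30. The larger WT count was thus not kept. Covered lengths under that setting were 55.7, 34.6, 81.1, 57.8 and 49.1 kb, and WT still had the longest. With peaks under 1 kb apart merged, the counts were 29, 26, 42, 29 and 26. Ranges beside shares are 95% intervals (exact binomial, Clopper-Pearson) for counting error alone, with each peak taken as independent. Neighbouring peaks of 1 locus and library are not independent, so the ranges are no test of the loci against the whole list. Of the fibroblast peaks, 12 of 30 (40%, 22.7–59.4) had no replicate 1 peak, against 37.6% of the whole list. Of replicate 1 peaks, 15 of 35 (42.9%, 26.3–60.6) had no fibroblast peak, against 48.3%. With WT in place of replicate 1 this share was 41 of 61 (67.2%, 54.0–78.7), against 56.4%. Deletion gave 28 of 51 (54.9%, 40.3–68.9), against 45.7%. Each of these 4 intervals includes the share of its own whole list. The covered length within 50 kb was at least 2 times greater in all 4 chondrocyte lists than in fibroblasts for none of 10 genes (3.39% of all genes), and the reverse was also true of none (3.36%).

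The peaks called in replicate 1, WT and the deletion list alike were also looked at. Of 61 WT peaks at the loci, 26 met both other lists, against 15297 of 33369 in the whole WT list. Of the 26, 9 had no fibroblast peak, against 29.7% of those 15297. These 9 were the peak upstream of Dcn, 3 in the body of Epyc, 2 upstream of Bgn, 1 upstream of Fmod, that of the Fmod promoter and 1 at −47.4 kb of Prelp. H3K4me2, for which no whole-list share of such peaks was counted, was present at 8 of the 9 and at 25 of the 26. It was present at 30 of 35 replicate 1 peaks of the loci (85.7%, 90.2% in the whole list) and at 22 of 30 fibroblast peaks (73.3%, 54.1–87.7, 81.7% in the whole list), although it was measured in chondrocytes. For WT peaks the share was 39 of 61 (63.9%, 50.6–75.8), against 79.4% in the whole list. Of the 51 H3K4me2 peaks at the loci, 23 (45.1%, 31.1–59.7) had no replicate 1 peak, against 64.8% in the whole list.

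All member promoters marked in WT were marked in the deletion list too. None of 10 promoters had a peak in WT and none in the deletion list, against 2.89% of all genes. Fold enrichment over the local background, the caller's own value at the summit, was lower in the deletion list for 7 of 8 marked members. It fell from 20.9 to 12.7 at Dcn, from 32.8 to 19.6 at Bgn, from 29.9 to 20.9 at Omd and from 21.6 to 11.6 at Ogn, without replicates. At Fmod it was 11.0 in WT and 13.3 in the deletion list. The median ratio of deletion to WT was 0.627 over the 8 members and 0.691 over 8523 promoters marked in both lists, so lower values were the rule over the whole list. A higher value in the deletion list, as at Fmod, was seen at 2.90% of these promoters.

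Of the 61 WT peaks at the loci, 23 (37.7%, 25.6–51.0) had no deletion peak, against 37.2% of the whole list. None of the 30 in the top 50% of the WT list by score lacked one, against 0.0120% of the first 25% and 5.08% of the next 25% of the whole list. Between the top 50% and 75%, 10 of 16 lacked one (58.3% in the whole list), and below that 13 of 15 did (89.5%). All 23 lay over 1 kb from any coding gene start. They were 23 of 47 such peaks at the loci (48.9%, 49.1% in the whole list), while 0 of 14 nearer peaks lacked one (10.7% in the whole list). Among them were 5 peaks in the body of Fmod, the widest of 1155 bp, and 4 short peaks between −23.3 and −3.77 kb of Dcn. None of 51 deletion peaks lacked a WT peak, which leaves an exact upper bound of 6.98%, and 1.12% did in the whole list.

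Relatives and partners of the family were read against the same background shares of 44.1% to 50% of all genes per H3K27ac list. Of 7 further small leucine-rich genes, 4, 3, 5 and 4 promoters were marked in the chondrocyte lists and 4 in fibroblasts. Of the 7, Tsku and Optc were marked in all 5 lists, against 37.5% of all genes. Among the H3K27ac lists, Ecm2 was marked in all but replicate 2, Podnl1 in WT alone and Nyx in replicate 2 alone. Podn, the gene of podocan, was marked in fibroblasts, WT and the deletion list, and Chad, the gene of the cartilage protein chondroadherin, in replicate 1 alone among the H3K27ac lists. Of 12 genes that build the sulfated chains, 9, 8, 11 and 10 were marked in the chondrocyte lists and 10 in fibroblasts. Xylt1, which adds the first sugar of the chain, and Dse, which turns chondroitin into dermatan sulfate, were among the 7 of 12 marked in all 5, and the keratan sulfate gene B3gnt7 in none.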

How the data were processed

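H3K27ac and H3K4me2 ChIP-Seq peak lists were used as the authors deposited them for 6 of 7 samples, and the input library was not analysed here. Per the submitters' processing notes and the methods, reads were cleaned with fastp, mapped with Bowtie2 2.4.4 to mm9 and peaks called per library with MACS2 2.2.4. Replicates were not pooled. The deposited score of each peak ranks peaks within its list alone. Replicate 2, WT and the deletion list also hold, in the deposited narrowPeak columns, −log10 p, −log10 q and fold enrichment, a ratio to the local background, of which the last was used. Replicate 1, H3K4me2 and fibroblasts hold a score only, in another form, and whether another MACS release made them is not given in the sources used here. Ranks therefore compare lists of different form, and a wide peak in one form can be several in the other.

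The build was checked on 18089 coding genes: replicate 2 marked 44.1% of promoters with GRCm38 positions and 6.24% with mm9 positions. Genes were placed by GENCODE vM1 (mm9) and RefSeq (GRCm38), and no coordinate was converted. In GRCm38, 12068 starts came from the RefSeq promoter table and 6021 from the gene. Chromosomes 1 to 19 and X were compared, with 1 bp of overlap counted as shared. Loci had 50 kb on each side. Sequences were read from the mm9 genome. Groups came from the sample labels, and no test was made. The methods call the 2 replicates biological and do not say whether they came from separate animals.

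The text names all 10 members, 7 relatives, genes in the windows, the leading peaks of each locus, and fibroblast and WT peaks without a partner. The members and lists were chosen with earlier results of these data known. The self-made counting code was checked on simulated lists and against bedtools 2.31.1. Alternatives are given in the closing section. Counting used pandas 2.3.3 and numpy 2.4.6 under Python 3.11.15, intervals scipy 1.17.1 and plots matplotlib 3.10.9.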

Additional observations from a re-analysis of the deposited data

How the results depend on the processing

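No paired analysis was possible because only 1 group carried replicate numbers, WT and the deletion were 1 library each, and no test was run. The count of marked promoters was 8 with windows of 500 bp and 2 kb in replicate 1, and the mean was 8 without either replicate. When each list was cut to its higher-scoring 50%, marked promoters were 5 in replicate 1 and 3 in fibroblasts, members with a body peak 3 in fibroblasts, peaks at the loci 18 in replicate 1 and 10 in fibroblasts, and covered length in fibroblasts 15.8 kb. Replicate 1 kept Dcn, Lum, Omd, Ogn and Bgn, and fibroblasts Lum, Aspn and Omd. Within 20 kb, replicate 1 had 21 peaks. With 50% reciprocal overlap, 66.7% of fibroblast peaks had no replicate 1 peak (57.1% of the whole list), 71.4% of replicate 1 peaks no fibroblast peak (67.4%) and 60.7% of WT peaks no deletion peak (53.0%), while 26.7% of fibroblast (25.5%) and 51.4% of replicate 1 peaks (42.5%) had H3K4me2. With the higher-scoring 50%, 20% of fibroblast peaks lacked a replicate 1 peak (29.2%) and 20% of WT peaks a deletion peak (29.7%). With equal numbers of H3K27ac peaks the last was 17.1% (16.4%). WT in place of replicate 1 gave 67.2% without a fibroblast peak. The rank margin and lists left out were varied after seeing the data: 30 points left 1 member in place of 4, and 4 remained the count at 10 points and without any 1 chondrocyte list. The other 47 checks of these results moved a count by at most 1.5 times, or a share within its interval. Depth could not be assessed, since the lists give no reads, and a missing peak is a missing call and not an absence of the mark. The cause of these shifts was not tested.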

Other observations

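The neighbours of the family differed among the loci. Btg2 behind Fmod, Optc behind Prelp, and Cenpp and Nol8 around the Aspn locus had marked promoters in all 5 H3K27ac lists. Haus7, before Bgn, was marked in replicate 1, WT and the deletion list and not in fibroblasts or replicate 2. Trex2 and Atp2b3, on either side of Bgn, had no H3K27ac promoter peak in any list, and Atp2b3 had H3K4me2. At the chromosome 10 locus, C030005K15Rik was marked in fibroblasts alone of the 5 mm9 lists, by a peak of 427 bp in its coding sequence in the top 86.0%. Gm10754 and 4921510H08Rik, at the same locus, had no promoter peak in any mm9 list.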
